A study of Homo sapiens with 42 samples.

Results

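The genes described here encode the proteins of the cytosolic ribosome. They were chosen by name: protein-coding genes of GENCODE 29 called RPL or RPS plus a number, with RPLP0, RPLP1, RPLP2 and RPSA, and without pseudogenes or the RPS6K kinases. The rule named 87 genes. Of these, 59 reached a mean of 10 reads or more in at least 1 of 3 deposited tables, among 42145 genes with an entry in the tables. They were 59 genes in the table of cell lines, 58 in the knockdown table and 55 in the compound table.

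All libraries came from MDA-MB-231, an established human triple-negative breast cancer line, grown in DMEM with 10% FBS, and were made with QuantSeq REV, which reads the 3′ ends of polyadenylated RNAs. The first table held cytoplasmic (cyto) and nuclear (nuc) RNA of LM2 cells, which the labels call highly metastatic to the lungs, and of Par cells, which they call poorly metastatic. The second compared HNRNPC knockdown (gHNRNPC) with a control (gCTRL) in the poorly metastatic cells, again in both fractions. For the third, LM2 cells received T4, a compound known here only by that code name, at 3 µM for 6 h, or DMSO in the same volume, and total RNA was taken. These cells were harvested at 6, 24 or 72 h, with a change of medium before the later harvests. Each of the 14 groups had 3 libraries (42 in all), and the labels do not say that these came from separate cultures, so p-values measure only the spread between libraries, which may be technical.

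Each ribosome joins a small subunit, whose proteins are named RPS, to a large subunit, whose proteins are named RPL. The proteins are made in the cytoplasm, imported into the nucleus, assembled with ribosomal RNA in the nucleolus and exported again as subunits. Most of their mRNAs begin with a 5′ terminal oligopyrimidine tract, a C followed by a run of pyrimidines, through which mTOR signalling and the protein LARP1 adjust their translation and stability together. HNRNPC, the protein that was knocked down, binds uridine tracts in nuclear RNA and is known for its part in splicing and 3′ end choice.

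The sequence at the start shows what most of these genes share. In RefSeq promoter windows (GRCh38.p14), a C at the annotated start followed by at least 4 pyrimidines was found in 34 of 46 measured members with a window (73.9%), against 1404 of 27305 genes (5.1%). The starts of members that the results turn on are given as 30 bases, 10 before the annotated start and 20 from it, with the tract in capitals. RPL10A and RPL32, with no tract exactly at that position, are shown for contrast, and RPL32 has 3 annotated starts. In RPL10A, and in the first and last printed starts of RPL32, a C followed by at least 4 pyrimidines lies within a few bases of the start. With such nearby tracts counted as well, 39 of the 46 measured members had one (84.8%), against 6447 of 27305 genes (23.6%).
RPLP0, chr12:120201092-120201121, minus strand: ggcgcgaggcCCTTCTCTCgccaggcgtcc
RPS12, chr6:132814559-132814588, plus strand: cggatgaggcCTCTTTCCCTgccgccgccg
RPS14, chr5:150449720-150449749, minus strand: ccctcccactCTCTCTTTCCggtgtggagt
RPL27A, chr11:8682782-8682811, plus strand: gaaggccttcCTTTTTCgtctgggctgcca
RPSA, chr3:39406710-39406739, plus strand: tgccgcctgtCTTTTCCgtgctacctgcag
RPL35A, chr3:197950180-197950209, plus strand: gggcctcgtcCTTCTCTTaccgccatcttg
RPL14, chr3:40457329-40457358, plus strand: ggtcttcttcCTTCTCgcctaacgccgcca
RPL10A, chr6:35468391-35468420, plus strand: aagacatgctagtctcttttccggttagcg
RPL32, chr3:12841546-12841575, minus strand: acgacccatcagcccttgcgcgccaccgtc
RPL32, chr3:12841563-12841592, minus strand: gctaggacccaggggttacgacccatcagc
RPL32, chr3:12840431-12840460, minus strand: ggtgacccttgacctcctgggatcgcatct

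The 3′ ends are what the assay counts, and they divide the members. Ends are given as the last 30 bases of the most used annotated transcript (GENCODE 29, GRCh38), with the poly(A) signal AATAAA or ATTAAA, searched on the transcript strand, in capitals wherever it occurs. The first group ends at the gene's commonest annotated end, and these genes were among the most counted members.
RPL27A-211, chr11:8685819-8685848, plus strand: ggagtttcATTAAAtgctaactactttttc
RPLP0-226, chr12:120196707-120196736, minus strand: caaaacaaggaAATAAAggcttacttcttt
RPS14-204, chr5:150444238-150444267, minus strand: ttttctgttAATAAAttgccttcatgtaaa
RPS27A-210, chr2:55235580-55235609, plus strand: gtatgagttAATAAAagacatgaactaaca
The second group holds ends of members whose counts differed most between groups. Counted from the commonest annotated end, downstream as positive, RPL35A-212 ends at 793 bases, RPL32-203 at 1101, RPS9-209 at 41356, RPL23-208 at −2819 and RPL34-205 at −1923, while RPL14-208 ends at the commonest end.
RPL35A-212, chr3:197956581-197956610, plus strand: atatgctaaAATAAAacaactaaggcatca
RPL14-208, chr3:40462339-40462368, plus strand: agtaggattatAATAAAcATTAAAtaatca
RPL32-203, chr3:12834946-12834975, minus strand: agtcataaatatttataatgcaaactggtc
RPL34-205, chr4:108623303-108623332, plus strand: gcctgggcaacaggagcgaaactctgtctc
GENCODE lists RPL23-208 and RPL34-205 as transcripts with a retained intron and RPS9-209 as subject to nonsense-mediated decay; the assay reads only the end, so transcripts that share one cannot be told apart. No such signal lies in the printed windows of RPL32-203 and RPL34-205. Of the member ends in the knockdown table, 43 of 57 had a signal in the last 50 bases (75.4%). Of all transcript ends in that table with a mean of 10 reads or more, 5388 of 7528 had such a signal (71.6%). These counts are of ends, not of genes.

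In the knockdown table, 37 members had their most used end within 25 bases of the gene's commonest annotated end, and their median was 2704.8 reads per library. The 7 whose most used end lay farther away (RPL22, RPL23, RPL32, RPL34, RPL35A, RPL37 and RPS9) had a median of 55.4 reads. The remaining members were counted at ends known only from another version of the annotation or at a genomic position. The most counted members were RPL27A (44805.1 reads per library on average), RPS27A (20578.7), RPLP0 (18856.2), RPS14 (15772.6) and RPS12 (14750.0). RPS27A is made as a fusion with ubiquitin, and RPLP0 is the base of the acidic stalk that recruits translation factors. The least counted of the 58 were RPL22L1 (11.8), RPL41 (13.2), RPL34 (18.4), RPL37A (19.4) and RPL4 (21.9).

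Not every member could be followed. Of the 87 genes, 28 stayed under a mean of 10 reads in all 3 tables, and 18 of these under 1 read. They include core proteins that every ribosome holds: in the knockdown table RPS6, the S6 kinase substrate, averaged 1.67 reads, RPL5, which carries 5S ribosomal RNA with RPL11, 1.67 reads, and RPS3, at the mRNA entry channel, 8.58 reads. Other genes active in all cells were as low there, with 12.17 reads for EEF1A1 and 3.17 for GAPDH against 13100.75 for ACTB. A low count here is therefore no measure of the gene's mRNA; its reason was not tested. Ribosomal protein genes have many near-identical pseudogene copies, and how reads shared between copies were assigned is not given in the sources used here, so levels of single members are uncertain.

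Counts assigned to genes summed to between 786615 and 2282617 per library. As checks of the labels, VIM, CD44, AXL and CAV1 were expressed in all groups, while ESR1, PGR and CDH1, which this line lacks, reached at most 2.28 CPM (counts scaled per 1e6 reads of a library). HNRNPC fell from 507.7 ± 32.0 CPM in gCTRL to 99.1 ± 13.0 CPM in gHNRNPC cytoplasm, and from 529.6 ± 95.4 to 97.6 ± 15.9 CPM in the nucleus (SD, n = 3 each; log2 differences −2.36 and −2.44). The libraries whose scaling factors lay farthest from 1 were the third T4 library at 6 h (0.503), the second T4 library at 72 h (1.44), the second nuclear library of LM2 (0.721) and the second nuclear library of Par (0.731). CPM values in the text use the scaled library sizes, and each compares a gene with the rest of its own library, so they are relative levels.

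The 87 genes together took 18.9% ± 0.230 of reads in LM2 cytoplasm and 18.2% ± 0.357 in Par cytoplasm, but 7.71% ± 0.923 and 7.80% ± 1.06 in the nuclei (SD, n = 3 each). In the knockdown table the share was 18.9% ± 0.229 in gCTRL and 20.2% ± 0.794 in gHNRNPC cytoplasm. In the nucleus it was 5.96% ± 0.357 in gCTRL, with libraries between 5.70 and 6.36%, and 8.73% ± 1.18 in gHNRNPC, with libraries between 7.87 and 10.1%. Cytoplasmic libraries never overlapped nuclear ones, and gHNRNPC nuclei stood above gCTRL nuclei without overlap. Total RNA lay mostly between the fractions, from 7.64% to 13.8%. At 24 h the 3 T4 libraries (9.90 to 10.0%) lay under the 3 DMSO libraries (12.4 to 13.8%), while at 6 h and 72 h the groups overlapped. These shares are of all gene-assigned reads, without the scaling used in the tests.

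**Figure D1:**
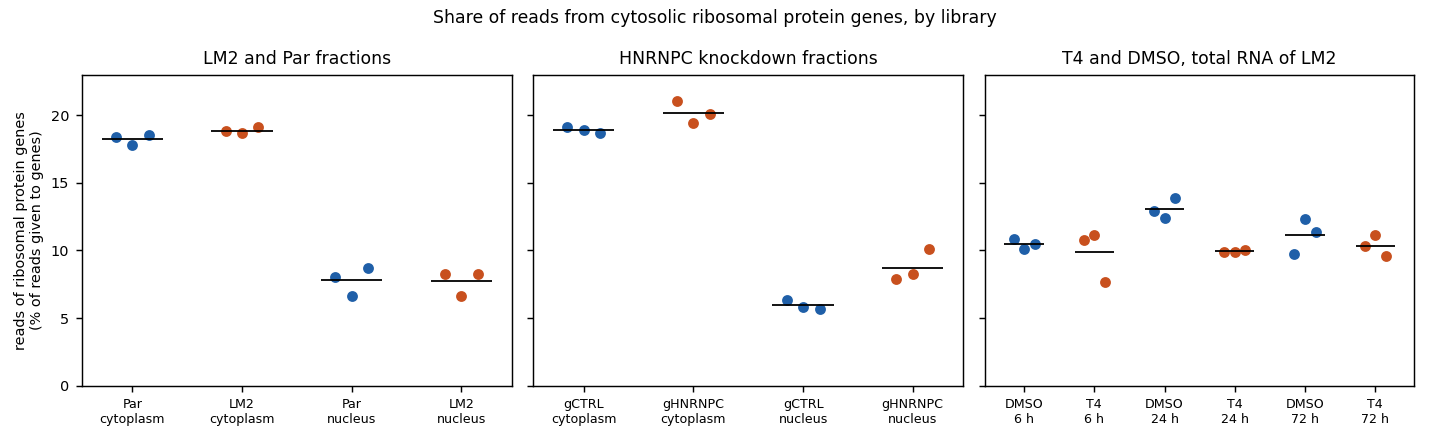
Share of gene-assigned reads (percent, vertical axis) taken by the 87 ribosomal protein genes in each of the 42 libraries, by group; points are libraries and lines are group means. The 12 cytoplasmic libraries lie between 17.8 and 21.0%, the 12 nuclear ones between 5.70 and 10.1%.

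The first question was how these mRNAs divide between the libraries labelled nucleus and cytoplasm. Most members were lower in the nucleus than in the cytoplasm, relative to other genes, in every cell group. In gCTRL cells 47 of 58 members were lower and 2 higher (27.6% and 33.9% of the 9356 genes tested were called in these directions). The median member difference, nucleus minus cytoplasm, was −1.42 on the log2 scale, against 0.06 for all genes. In gHNRNPC cells 42 of 58 were lower and 4 higher (23.2% and 31.3% of all genes), with a median of −0.89 against 0.03. Par cells had 37 of 59 lower and 2 higher (21.7% and 23.5%), median −0.91 against 0.07. LM2 cells had 38 lower and 3 higher (23.3% and 28.7%), median −0.84 against 0.22. A set of 31 members was lower in the nucleus in all 4 cell groups, among them RPL27A, RPS12, RPS14, RPLP0, RPLP1, RPLP2, RPS27A and RPSA. The share of all genes called lower in all 4 is not given, so this count has no background to be read against.

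RPL27A, a large subunit protein, gave 38716.2, 52087.7 and 38814.0 CPM in gCTRL cytoplasm and 7000.3, 7236.7 and 4962.0 CPM in gCTRL nuclei. The 2 fractions were far apart, and the difference was −2.76 ± 0.25 (log2, SE; edgeR adjusted p = 3e-10). RPS12, a small subunit protein, gave 12388.8, 11530.6 and 11167.7 CPM in the cytoplasm and 2672.7, 1911.0 and 1505.2 CPM in the nucleus, a difference of −2.53. RPL41, the smallest ribosomal protein, differed by −2.86 ± 0.53 at a low count. Among the smallest called differences were RPL18 (−0.84) and RPL8 (−0.86). In Par and LM2 cells RPL27A differed by −2.21 and −2.65.

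**Figure D2:**
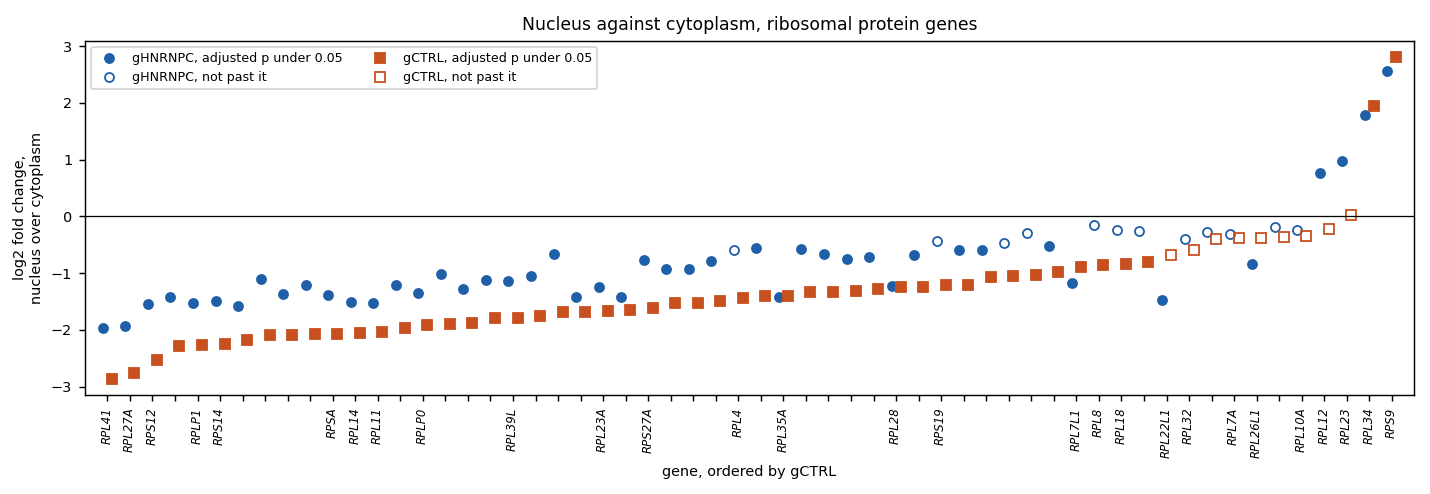
Nucleus minus cytoplasm difference (log2, edgeR) of each of the 58 ribosomal protein genes in gCTRL (squares) and gHNRNPC cells (circles), ordered by gCTRL, with some genes of the text labelled; filled symbols passed an adjusted p of 0.05. Most genes lie under 0, from −2.86 for RPL41 in gCTRL, and RPS9 and RPL34 lie above 0 in both.

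A few members went the other way. RPS9, a small subunit protein with a part in decoding accuracy, was counted mostly at the distant RPS9-209 end. Its levels were 10.8, 15.6 and 4.7 CPM in gCTRL cytoplasm and 89.9, 68.6 and 57.6 CPM in gCTRL nuclei (2.81 ± 0.30, edgeR adjusted p = 6.2e-09), and it was higher by 2.56 in gHNRNPC nuclei. In the nuclei of Par cells it gave 12.1, 299.1 and 43.5 CPM, and in those of LM2 cells 252.2 CPM in the second library and 84.9 CPM in the next highest. The second library was the high one in both. The Par difference of 4.15 ± 1.28 (edgeR adjusted p = 0.029) became 2.06 (adjusted p = 0.14) without the second Par nuclear library, and the LM2 difference of 3.35 ± 1.22 (adjusted p = 0.047) also missed the threshold without the second LM2 nuclear library (adjusted p = 0.18). Leaving out any 1 of the cytoplasmic libraries also ended these calls, in Par (adjusted p from 0.067 to 0.093) and in LM2 (0.11 to 0.12), as did leaving out the third LM2 nuclear library (0.067). RPL34, counted at an end upstream of its usual one, was higher by 1.95 ± 0.37 in gCTRL nuclei (edgeR adjusted p = 4.7e-05) and by 1.78 in gHNRNPC nuclei.

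RPL3L, the muscle form of RPL3, was called higher in Par nuclei (3.99 ± 1.42, edgeR adjusted p = 0.046), again on the second library (2.8, 62.8 and 9.0 CPM), and lost the call without it (adjusted p = 0.26) or without any 1 Par cytoplasmic library (0.093 to 0.12). Among abundant members RPL7A and RPL10A, both of the large subunit, stood apart in LM2 cells. RPL10A gave 1271.7, 1256.8 and 1292.7 CPM in LM2 cytoplasm and 1906.6, 1413.3 and 1714.5 CPM in LM2 nuclei. The nuclear values were the higher ones without overlap (RPL10A 0.40, RPL7A 0.42; edgeR adjusted p = 0.031 for both). Both calls were lost without the first or the third LM2 nuclear library or any 1 LM2 cytoplasmic library (adjusted p from 0.084 to 0.10). In Par cells the differences were −0.21 (adjusted p = 0.24) and −0.15 (adjusted p = 0.43). The difference between LM2 and Par in this fraction contrast passed the test for no member and no gene. With no adjustment 10 members and 759 genes had p under 0.05, and DESeq2 called 0 members (edgeR's smallest member adjusted p was 0.37).

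Other mRNAs with an oligopyrimidine tract were shifted alike in gCTRL cells. Of 14 tested genes of that list 12 were lower in the nucleus (27.6% of all genes), with a median of −1.38. TPT1 (−2.47) and NACA (−2.43) are examples. In gHNRNPC cells 10 of 14 were lower and 0 higher (median −1.17). The shift was less uniform in Par cells, with 7 of 12 lower and 1 higher (median −0.69). The higher one was EEF2 (0.68, edgeR adjusted p = 0.00069). LM2 cells had 7 of 12 lower and 2 higher (median −0.98). Ribosome biogenesis factors, the nucleolar proteins that build ribosomes, were split in gCTRL cells, with 7 higher and 10 lower of 35 and a median of −0.14. The fractions also differed in mitochondrially encoded RNAs: the summed level of 7 such genes was 375.6 to 1167.3 CPM in gCTRL cytoplasm and 58359.7 to 67276.3 CPM in gCTRL nuclei. All 7 were called higher in the nuclei of Par and of LM2 cells. These RNAs had been listed as cytoplasmic ones, so their order was opposite to the listed place. The fractions are named here as the labels name them. The part of these RNAs in the fraction differences was not tested. The nuclear-retained RNA MALAT1 reached 31.5 to 66.8 CPM in gCTRL nuclei and 3.8 to 8.6 CPM in the cytoplasm of the knockdown table.

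After HNRNPC knockdown the calls lay mostly in the nucleus, where 32 of 58 members were higher in gHNRNPC than in gCTRL and none was lower (8.44% and 5.85% of all genes). The median member rose by 0.62 on the log2 scale, against 0.04 for all genes, and 53 of 58 differences were above 0. In the cytoplasm 7 members were higher and 3 lower (11.6% and 11.7% of all genes), which makes 12.1% and 5.17% of the members, and the median was 0.07 against 0.01. In the nucleus 15 of 22 small and 17 of 36 large subunit genes were higher. In the cytoplasm all 10 calls were large subunit genes.

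**Figure D3:**
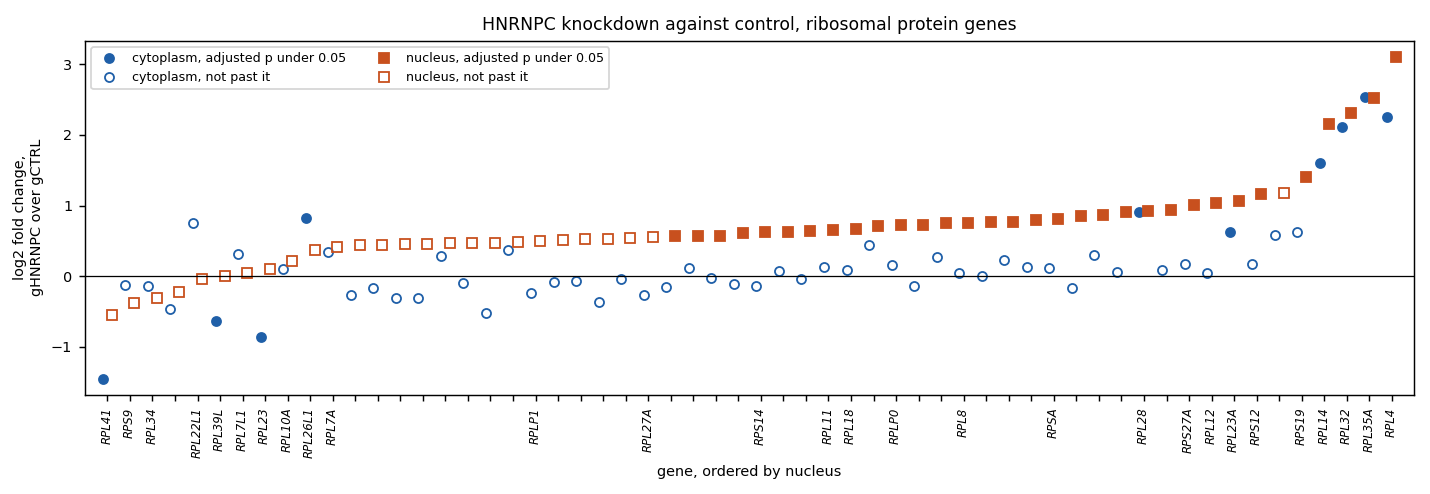
Knockdown effect (gHNRNPC minus gCTRL, log2, edgeR) of each of the 58 ribosomal protein genes in the nucleus (squares) and the cytoplasm (circles), ordered by nucleus, with some genes of the text labelled; filled symbols passed an adjusted p of 0.05. Squares lie above 0 for 53 genes while circles scatter around 0, with RPL4, RPL35A, RPL32 and RPL14 high in both.

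RPS12 gave 2672.7, 1911.0 and 1505.2 CPM in gCTRL nuclei and 3513.0, 3912.2 and 6228.2 CPM in gHNRNPC nuclei. The groups did not overlap, and the rise was 1.17 ± 0.22 (log2, SE; edgeR adjusted p = 0.00066). RPS27A rose from 6029.1, 4636.4 and 3694.5 CPM to 7586.2, 7860.6 and 13463.5 CPM (1.01 ± 0.22, adjusted p = 0.0024). In both genes the third gHNRNPC nuclear library was the highest. RPLP0 rose by 0.72 (edgeR adjusted p = 0.021), RPSA, the laminin receptor precursor of the small subunit, by 0.80 (adjusted p = 0.0039) and RPL11 by 0.65 (adjusted p = 0.013). In the cytoplasm the same genes differed by 0.18 (RPS12), 0.17 (RPS27A), 0.15 (RPLP0), 0.12 (RPSA) and 0.13 (RPL11), none past the test. The nuclear calls of RPLP0 and RPL11 were lost without the third gHNRNPC library (adjusted p = 0.15 and 0.069) or the second gCTRL library (0.084 and 0.11), and that of RPLP0 also without the third gCTRL library (0.11).

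Parting the members at a mean of 400 reads, a value chosen after the data were seen, all 40 members above it had a nuclear effect over 0, between 0.22 and 1.17, and 24 were called. Of the 18 members under it, 13 were above 0 and 8 were called, with effects from −0.55 to 3.11. In the cytoplasm the abundant members had 1 call in 40, against 9 in 18 among the others.

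The count of 32 rests in part on single libraries. It was 21 without the third gHNRNPC nuclear library (5.39% of all genes were then higher) and 15 without the second gCTRL nuclear library (4.07%), and 18 when only whole-valued entries were used. Mitochondrially encoded RNAs moved in the same direction: their summed level was 58359.7 to 67276.3 CPM in gCTRL nuclei and 74258.1 to 91076.4 CPM in gHNRNPC nuclei, without overlap, with 1 of 7 genes called (MT-CO2, 1.06, edgeR adjusted p = 0.044). In the cytoplasm 4 of the 7 were called higher after knockdown, with a median of 0.85 and MT-CO2 at 2.28 (adjusted p = 0.0083), and their summed level was 375.6 to 1167.3 CPM in gCTRL and 903.9 to 1938.1 CPM in gHNRNPC, with overlap. MALAT1 did not part the 2 groups, with 31.5 to 66.8 and 35.3 to 75.6 CPM. The part of fraction purity in the nuclear rise was not tested.

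The difference between the nuclear and the cytoplasmic knockdown effect was tested directly. It was above 0 in 52 of 58 members, with a median of 0.60 against 0.04 for all genes. No member passed the adjusted threshold (0.0107% of all genes did in each direction). With no adjustment 33 of 58 members and 978 genes had p under 0.05, and DESeq2 called 0 members. The smallest edgeR adjusted p of a member was 0.15.

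RPL14, RPL23A, RPL28, RPL32, RPL35A and RPL4 were higher after knockdown in both fractions, and none was lower in both. The share of all genes called in both fractions is not given beside this. RPL35A, mutated in some cases of Diamond-Blackfan anaemia, gave 48.0, 16.1 and 39.0 CPM in gCTRL cytoplasm and 174.9, 228.1 and 197.7 CPM in gHNRNPC cytoplasm. Its nuclear values went from 17.6, 12.2 and 9.2 to 60.0, 75.6 and 89.3 CPM. The groups were far apart in both, with effects of 2.54 ± 0.27 in the cytoplasm and 2.52 ± 0.32 in the nucleus (edgeR adjusted p = 1.8e-07 and 4e-06). These reads belong to the long RPL35A-212 form, not to the commonest end.

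RPL4, a large subunit protein that lines the exit tunnel, rose from 6.5, 5.4 and 4.2 CPM to 21.5, 34.5 and 21.3 CPM in the cytoplasm (2.26 ± 0.37, edgeR adjusted p = 7.4e-05). In the nucleus it went from 1.9, 2.6 and 1.3 to 10.1, 26.8 and 14.3 CPM (3.11 ± 0.49, adjusted p = 8.4e-05). RPL32 rose from 9.2, 7.0 and 13.6 CPM to 28.5, 60.3 and 42.1 CPM in the cytoplasm (2.12 ± 0.30, edgeR adjusted p = 9.4e-06) and by 2.31 ± 0.34 in the nucleus (adjusted p = 3.6e-05). Both were counted at low levels, RPL4 mostly at a genomic position and RPL32 at the distant end shown earlier.

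RPL14 was the best counted of the 4. It gave 68.0, 61.1 and 64.4 CPM in gCTRL cytoplasm and 203.4, 191.6 and 193.0 CPM in gHNRNPC cytoplasm, and 12.6, 21.8 and 11.8 against 67.6, 51.2 and 87.8 CPM in the nuclei. It rose by 1.60 ± 0.21 (edgeR adjusted p = 3.4e-06) and 2.16 ± 0.26 (adjusted p = 1.3e-06). RPL28 rose by 0.90 ± 0.25 in the cytoplasm (edgeR adjusted p = 0.0085). RPL23A rose by 0.63 ± 0.20 there (adjusted p = 0.025), which was 0.03 (adjusted p = 0.93) with whole-valued entries alone. That call was also lost without the second or the third gHNRNPC or the second or the third gCTRL cytoplasmic library (adjusted p from 0.075 to 0.16).

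**Figure D4:**
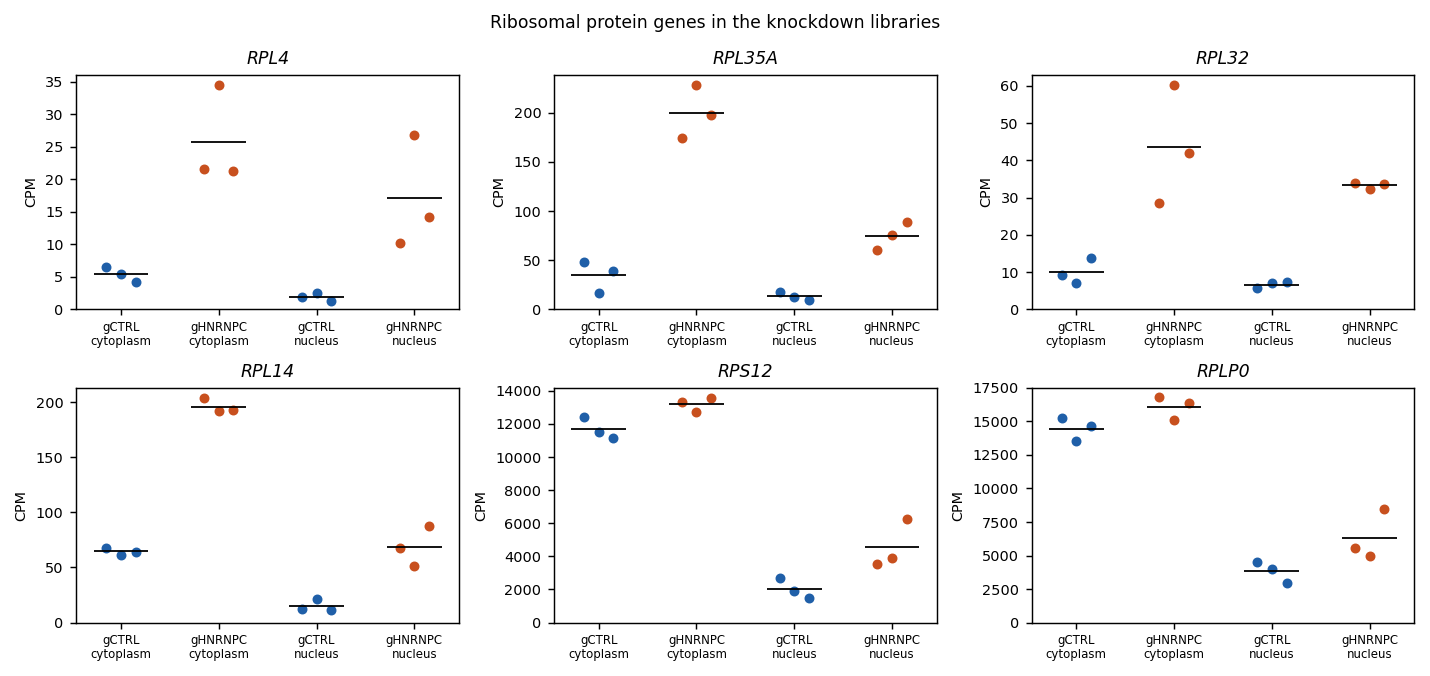
CPM per library (linear axis from 0) of selected ribosomal protein genes in gCTRL and gHNRNPC, cytoplasm and nucleus; each point is 1 of 3 libraries and each line the group mean. The groups do not overlap for RPL4, RPL35A, RPL32 and RPL14 in either fraction, nor for RPS12 and RPLP0 in the nucleus.

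Among calls in the cytoplasm alone, RPL26L1, a near copy of RPL26, gave 46.4, 44.0 and 53.6 CPM in gCTRL and 85.0, 105.4 and 66.3 CPM in gHNRNPC (0.83 ± 0.22, edgeR adjusted p = 0.006). RPL41 was lower, with 15.1, 24.7 and 13.2 against 7.5, 8.1 and 3.8 CPM (−1.45 ± 0.43, adjusted p = 0.016), and so was RPL23, which binds MDM2 when free of the ribosome (−0.85 ± 0.25, adjusted p = 0.014). RPL39L, a paralog of RPL39 known from testis, gave 42.1, 44.5 and 44.2 against 24.8, 30.4 and 28.9 CPM, just past the threshold (−0.63 ± 0.23, adjusted p = 0.0495). Leaving out any 1 of the 6 cytoplasmic libraries ended the RPL39L call (adjusted p from 0.062 to 0.14). The RPL26L1 call was lost without the second gHNRNPC library (adjusted p = 0.086), that of RPL23 without the second or the third (0.072 and 0.064), and that of RPL41 without the third gHNRNPC or the second gCTRL library (0.10 and 0.11). The cytoplasmic count of 10 became 6 without the second and 6 without the third gHNRNPC library. For RPL22L1, RPL39L and RPL7L1 the nuclear differences were −0.04, 0.01 and 0.04, none past the test.

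Other genes of the pathway were read from named lists. In the nucleus 12 of 35 ribosome biogenesis factors were higher and none lower, with a median of 0.50; NOP16 (1.46, edgeR adjusted p = 2.3e-05) and NOP56 (1.17, adjusted p = 2.6e-05), a core protein of box C/D small nucleolar particles, led. Of 14 other oligopyrimidine-tract mRNAs 4 were higher and none lower, median 0.44, with the elongation factors EEF2 (0.77, adjusted p = 0.004) and EEF1D (0.66). FAU, which encodes RPS30 and lies outside the naming rule, rose by 0.73 ± 0.18 (adjusted p = 0.0072). In the cytoplasm 15 biogenesis factors were higher and 1 lower, median 0.67, DDX21 (1.65) and WDR75 (1.90) among them, whereas the tract mRNAs had 1 call and a median of −0.12. RACK1, the scaffold on the small subunit, fell there by 0.64 (adjusted p = 0.017). The translation regulators RPS6KB1 (−0.90), RPS6KB2 (−0.72) and EIF4EBP2 (−0.70) were lower in the cytoplasm, and none of the 9 was called in the nucleus. Of 6 chaperones of single ribosomal proteins 1 was higher and 1 lower in the cytoplasm, and none was called in the nucleus.

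LM2 and Par cells were compared within each fraction. In the cytoplasm 3 of 59 members were higher in LM2 and 7 lower (4.19% and 7.49% of the 8546 genes tested), and the median was 0.00 against −0.02 for all genes. All 10 were among the 40 members with a mean of 400 reads or more. The 3 higher members were of the small subunit, RPSA and RPS14 among them. Lower were RPL13A, RPL22, RPL7A, RPL10A and RPL39 of the large and RPS21 and RPS16 of the small subunit.

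RPL13A, also known from control of inflammatory mRNAs outside the ribosome, gave 426.2, 419.7 and 394.7 CPM in LM2 and 843.3, 841.9 and 626.0 CPM in Par cytoplasm (−0.90 ± 0.17, edgeR adjusted p = 0.0067). RPL22, a protein often mutated in tumours, gave 974.6, 1013.5 and 1122.8 against 1865.1, 1939.4 and 1512.4 CPM (−0.77, adjusted p = 0.028). Neither gene's groups overlapped. RPS14, lost with chromosome 5q in a myelodysplastic syndrome, gave 15379.2, 14985.1 and 16272.1 against 10322.6, 9461.5 and 11710.6 CPM (0.57, adjusted p = 0.021). RPSA gave 4435.5, 4498.3 and 4748.9 against 3118.3, 2941.0 and 3611.5 CPM (0.50 ± 0.13, adjusted p = 0.026). The order of the groups was thus opposite for RPL13A and RPS14 in the same libraries.

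In the nucleus 2 members were higher in LM2 and 1 lower (1.26% and 1.24% of all genes), with a median of −0.06 against 0.01. RPS16 was lower (−0.57, edgeR adjusted p = 0.046), as in the cytoplasm. RPS23, of the decoding centre, gave 49.0, 38.1 and 26.2 CPM in LM2 nuclei and 16.1 ± 3.09 CPM (SD, n = 3) in Par nuclei, without overlap (1.20 ± 0.26, adjusted p = 0.029). The first and second replicate numbers paired these nuclear libraries, but the third did not. With the replicate as a block the 3 calls became 0 (edgeR adjusted p between 0.052 and 0.061). The cytoplasmic count was 0 with library totals as the scaling, 28 with only the compared groups in the fit, and 2 to 4 without any 1 of the libraries other than the third Par library, without which it was 13. The share of all genes called under these settings is not given, so these counts show only how far the calls depend on the fit. RPL13A kept its cytoplasmic call with each of the 6 libraries left out, with edgeR adjusted p up to 0.042, and missed the threshold with library totals (0.092). The calls of RPL22, RPS14 and RPSA were lost without any 1 library other than the third Par library (adjusted p from 0.061 to 0.12). The nuclear count of 3 fell to 0 or 1 without any 1 library but the first LM2 library, without which it was 4.

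Beside the members, RACK1 was higher in LM2 cytoplasm (0.55, edgeR adjusted p = 0.049) and FAU lower (−0.50, adjusted p = 0.043). Of 12 other oligopyrimidine-tract mRNAs 2 were higher and 2 lower, and of 35 biogenesis factors 3 were higher and 5 lower. The chaperones of single ribosomal proteins had 0 higher and 2 lower of 6. In the nucleus no gene of these lists was called, and of the translation regulators 1 of 9 was higher in each fraction.

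Few members were called after T4. At 6 h 2 of 55 members were higher than in DMSO and none lower (3.12% and 12.6% of the 8039 genes tested), with a median of 0.19 against −0.11 for all genes. At 24 h 1 was higher and none lower (2.21% and 3.01%), median −0.21 against 0.02. At 72 h none was called (0.112% and 0.174%), median −0.22 against −0.01; edgeR gave 1 member an unadjusted p under 0.05 there, and DESeq2 called 1 lower.

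RPL23 gave 13.3, 25.3 and 11.6 CPM in DMSO and 31.5, 44.3 and 71.8 CPM in T4 at 6 h, without overlap (1.49 ± 0.34, edgeR adjusted p = 0.0062). At 72 h it gave 21.3, 22.4 and 21.6 CPM in DMSO and 14.3, 6.7 and 14.9 CPM in T4, the opposite order (−0.89, adjusted p = 0.43). The difference between the 2 effects was −2.38 ± 0.49 (adjusted p = 0.0057). It was the 1 member called lower in that test (1.46% of all genes were called lower and 7.99% higher). RPL41 gave 5.5, 3.2 and 5.8 CPM in DMSO and between 22.5 and 56.1 CPM in T4 at 6 h (2.66 ± 0.56, adjusted p = 0.0033). RPL37, counted at an end 4745 bases past its commonest one, gave 21.4, 36.6 and 35.2 CPM in DMSO and 176.0, 123.1 and 108.3 CPM in T4 at 24 h (2.12 ± 0.33, adjusted p = 0.002). All 3 are low-count members.

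**Figure D5:**
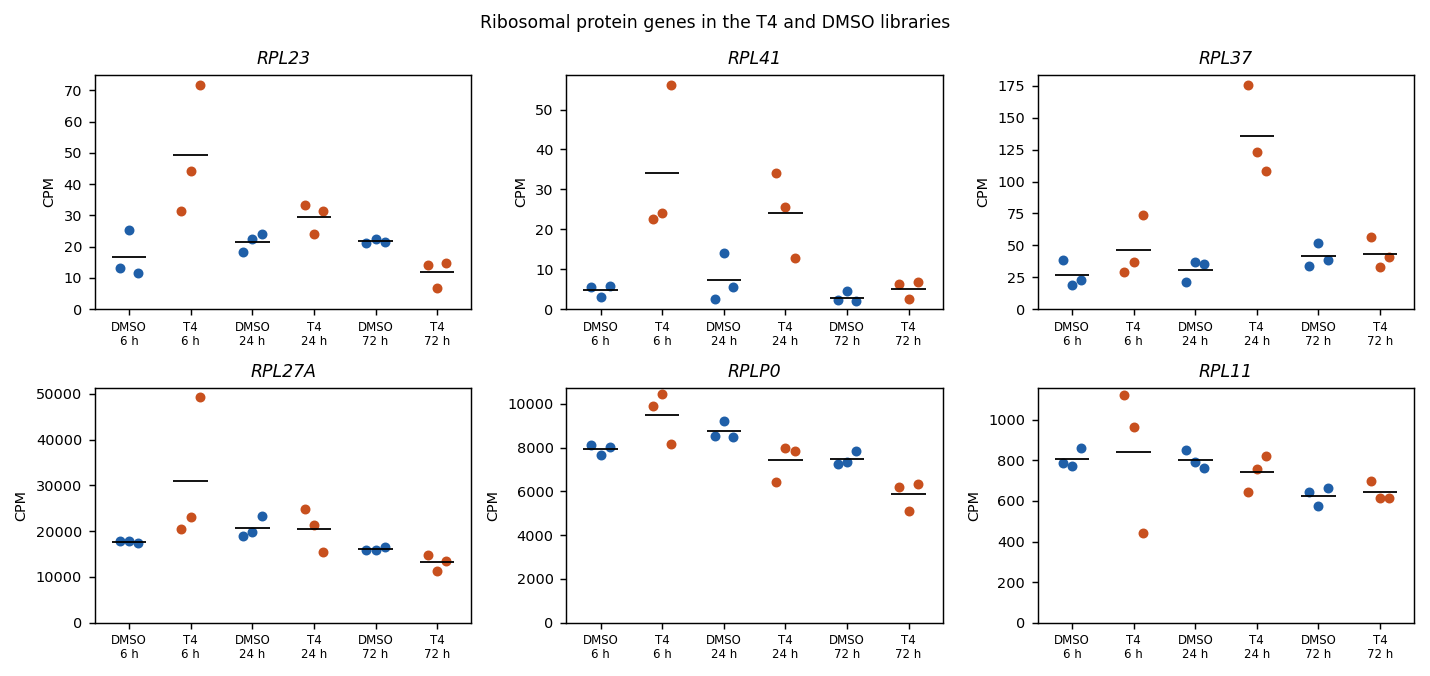
CPM per library (linear axis from 0) of selected ribosomal protein genes in DMSO and T4 at 6, 24 and 72 h; each point is 1 of 3 libraries and each line the group mean. RPL23 and RPL41 are higher in T4 at 6 h and RPL37 at 24 h; the third T4 library at 6 h lies apart in abundant genes.

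The 6 h result turns on 1 library. The third T4 library at 6 h had the lowest scaling factor and stood apart from the other 2 in abundant members. RPL27A gave 20500.5 and 22978.0 CPM in T4 libraries 1 and 2 but 49415.7 CPM in library 3, against 17424.2 to 17909.7 CPM in DMSO. RPL7A gave 2525.7 and 2707.6 CPM but 396.9 CPM in library 3. RPL11 gave 1124.3 and 963.2 CPM but 439.6 CPM, with DMSO between 774.8 and 863.2 CPM. Members thus went both up and down in that library.

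Without that library, which was judged once the values were known, 22 of 55 members were higher at 6 h and none lower (4.45% of all genes were higher), with a median of 0.39 and 52 above 0. RPS7 rose by 0.55 ± 0.12 (edgeR adjusted p = 0.0048) and RPLP0 by 0.43 ± 0.10 (adjusted p = 0.0078). In the same fit 3 members were higher and 19 lower at 24 h (4.67% and 11.2%), median −0.32. RPL7A gave 2731.0, 3008.2 and 2249.0 CPM in DMSO and 1207.2, 1422.1 and 1724.7 CPM in T4 at 24 h (−0.98 ± 0.13, adjusted p = 5.2e-05 in that fit), and RPL13A (−0.85) and RPL10A (−0.81) were lower as well. None was called at 72 h. The difference between the 72 h and 6 h effects was then called lower for 29 members (2.66%), RPLP0 among them (−0.78 ± 0.14, adjusted p = 0.0012). With all libraries DESeq2 called 19 members higher at 6 h (7.7% of all genes). The 6 h median was −0.20 with library totals as the scaling, which moved the median of all genes by −0.40.

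For the lists, all libraries were in the fit, and no list result is given without the third T4 library at 6 h. At 6 h 0 of 12 other oligopyrimidine-tract mRNAs were called (median 0.32). Of 35 biogenesis factors 2 were higher and 9 lower (3.12% and 12.6% of all genes), with a median of −0.36. UBTF, which opens ribosomal DNA for RNA polymerase I, fell by 1.18, while NOP56 rose by 1.00. Of the translation regulators RPS6KB1 (−2.04) and RPTOR (−1.46) were lower at 6 h. At 24 h 1 biogenesis factor was higher and 1 regulator lower, and at 72 h no gene of the lists was called. At 24 h, where the share of ribosomal protein reads was lower in T4, the nuclear-retained MALAT1 was higher (1.54, edgeR adjusted p = 0.025) and AXL, 1 of the 4 markers of the line, lower (−1.23, adjusted p = 0.0041). Their part in the share was not tested.

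The use of 1 end against another within a gene could be tested for 8 to 10 members. After knockdown 3 of 10 were called in the cytoplasm (11.3% of 1169 genes) and 1 of 10 in the nucleus (3.68%). RPL14 was called in both: the share of its second end among the 2 fell from 24.8% ± 5.81 to 7.30% ± 2.19 in the cytoplasm and from 36.0% ± 9.82 to 8.93% ± 3.27 in the nucleus (SD, n = 3 each; edgeR adjusted p = 0.0014 and 0.0078). Reads at its first end, summed over libraries, went from 268 to 1097 in the cytoplasm and from 40 to 227 in the nucleus. The nuclear call was lost without the second gCTRL nuclear library. RPL7L1 (−2.35 ± 0.50, edgeR adjusted p = 0.0039) and RPL9 (1.38 ± 0.41, adjusted p = 0.033) were the other calls in the cytoplasm. The second RPL9 end was little used, with 0.332% ± 0.142 of reads at the 2 ends in gCTRL and 0.864% ± 0.137 in gHNRNPC cytoplasm (SD, n = 3 each). In the nucleus the RPL9 estimate was −0.88 (edgeR adjusted p = 0.58).

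Between fractions 5 of 10 members were called in gCTRL cells (29.3% of genes), 4 of 10 in gHNRNPC (14.0%), 1 of 9 in Par (10.3%) and 4 of 9 in LM2 (37.5%). RPL23 was called in all 4 cell groups: its RPL23-209 end, at −4733 bases from the commonest one, held 67.1% ± 9.55 of reads at the 2 ends in gCTRL cytoplasm and 8.40% ± 1.95 in gCTRL nuclei (SD, n = 3 each; edgeR adjusted p = 4.4e-06). The remaining reads lay at RPL23-208. Between LM2 and Par, 0 of 9 members were called in the cytoplasm (0.467% of 1071 genes) and 0 of 9 in the nucleus (0.0%). T4 gave 0 of 8 at each harvest (5.2%, 2.35% and 0.0% of 807 genes). With no adjustment edgeR gave p under 0.05 for 154, 152 and 28 genes at 6, 24 and 72 h.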

How the data were processed

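QuantSeq REV 3′-end libraries were analysed from 3 deposited tables. The authors deposited estimated counts for each transcript end or position, made with Salmon 0.14.1 and hg38 per the submitters' processing notes. Although file names speak of normalised values, 98.3 to 98.6% of values were whole and columns differed in total. Entries were rounded and summed per gene (GENCODE 29; a position entry went with the transcript above it); unmatched entries held 0.92 to 4.13% of reads. Columns named MDAtr were taken as Par and LM2tr as LM2. The annotation build of the position entries is unclear, so no coordinate of theirs is given.

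edgeR 4.0.16 (R 4.3.3) quasi-likelihood fits with robust dispersion, filterByExpr and TMM used all groups of a table, with no replicate block. P-values were adjusted over all genes of a comparison (Benjamini-Hochberg, 2-sided, threshold 0.05). End use was tested on the 2 most used entries of a gene, each with a mean of 10 or more, with library as a term. Genes were named by rule: the 8 highest and 8 lowest members called per comparison, fixed well-known members and paralogs, the most and least counted, and at most 4 per list. The rule was read to include members such as RPL22L1; a reading with 1 suffix letter gives 81 genes. The members and lists were chosen with earlier results of these data known. Alternatives used DESeq2 1.42.0, other scalings and filters, and left-out libraries. On simulated data edgeR found 57.3 to 96.4% of genes changed by 2 on the log2 scale and 5.38 to 52.6% of those changed by 1. Replicate numbers paired libraries in part (correlations of deviations all over 0.1) for LM2 against Par nuclei (0.64, 0.76 and 0.16) and T4 against DMSO at 72 h (0.29, 0.64 and 0.14). The third number did not pair in either, since a library of another number correlated more (0.17 and 0.44). A few members and sequences are not reported here by name, though counts over the members include them.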

Additional observations from a re-analysis of the deposited data

Results flagged for a closer look

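The effect of T4 on RPL23 differed between harvests: 72 h minus 6 h was −2.38 ± 0.49 on the log2 scale (edgeR adjusted p = 0.0057), with every T4 library above every DMSO library at 6 h and under every DMSO library at 72 h. With only the compared groups in the fit, the 6 h effect itself (1.40) had an adjusted p of 0.084. Without the third T4 library at 6 h the difference was −2.16. RPL23 was counted at ends upstream of its commonest annotated end and at low levels. The 2 effects lay at different ends, in reads summed over libraries and not scaled for depth. At 6 h RPL23-208 had 25 reads in DMSO and 72 in T4, while RPL23-209 had 42 in both. At 72 h RPL23-209 had 75 in DMSO and 37 in T4, and RPL23-208 had 26 and 21. The use of the 2 ends passed the test at neither harvest (edgeR adjusted p = 0.081 and 0.999).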

How the results depend on the processing

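Over 25 counts of members called, 248 of 306 alternative counts stayed within 1.5 times of the count reported, and 9 counts did so under every alternative. Counts in this section are of members alone, and the share of all genes called under each setting is not given beside them. Of 194 single-gene results with 2875 alternative values, 2649 kept direction and side of the threshold, 187 lost the call, 39 gained one and 0 reversed. Members called for LM2 against Par in the cytoplasm (10) became 0 with library totals and 28 with only the compared groups, and ranged from 2 to 13 with 1 library left out. For LM2 against Par in the nucleus (3) the count was 1 with median-of-ratios scaling, 0 with library totals, with the replicate block, with whole-valued entries, without both nuclear libraries numbered 2 and with only the compared groups, and 0 to 4 with 1 library left out. For the knockdown it was 6 to 10 in the cytoplasm (10) with 1 library left out, and in the nucleus (32) 18 with whole-valued entries and 15 to 30 with 1 library left out; its nuclear median stayed between 0.50 and 0.67. T4 at 6 h (2) gave 4 with median-of-ratios scaling, 5 with no filter on low counts, 14 with whole-valued entries, 19 with DESeq2, 1 with only the compared groups and 2 to 22 with 1 library left out. T4 at 24 h (1) gave 5 with no filter, 4 with whole-valued entries, 9 with DESeq2, 12 with only the compared groups and 1 to 22 with 1 library left out. T4 at 72 h (0) gave 1 with DESeq2. The T4 effect at 72 h against 6 h (1) gave 3 with no filter, 12 with whole-valued entries, 18 with DESeq2 and 1 to 29 with 1 library left out.

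For the use of ends, asking for a mean of 50 at both ends gave 2 members for LM2 against Par in the cytoplasm (0), 3 between fractions in Par (1), 2 in LM2 (4), 2 in gCTRL (5) and 1 in gHNRNPC (4), 0 for the knockdown in the cytoplasm (3) and 0 in the nucleus (1), and 1 for T4 at 24 h (0). Members with an end under a mean of 50 left that test. RPL14, RPL7L1 and RPL9, the members called after knockdown, were among them, so the 0s for the knockdown do not mean that their calls failed. With 1 library left out, the counts at the main setting ranged from 0 to 1 for LM2 against Par in the cytoplasm, 1 to 2 between fractions in Par, 0 to 1 for the knockdown in the nucleus and 3 to 5 between fractions in gCTRL. The replicate block gave 1 for LM2 against Par in the cytoplasm and 2 between fractions in Par. In the test of gene sums, not of ends, the knockdown count in the nucleus (32) was 24 with the block, where the numbers did not pair the libraries. The cause of these changes was not tested. Library totals moved the median of all genes by −0.40, −0.20 and 0.16 for T4 at 6, 24 and 72 h, −0.12 for the knockdown in the nucleus and 0.14 in the cytoplasm.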
